A study of Mus musculus with 2 samples.

Results

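The type I interferon-stimulated genes described here are a list of 41 mouse genes that are known to be switched on by type I interferon. Of these, 40 were analysed among the 27998 genes of the count tables, and Mx2 was not analysed here. The list was taken as given. Its rule uses no measured value, but the members were chosen with earlier results of these data known. Type I interferons (interferon-beta and the interferon-alphas) bind a receptor made of IFNAR1 and IFNAR2, and the kinases JAK1 and TYK2 then pass the signal on. A complex that contains STAT2 and IRF9 binds the interferon-stimulated response element, ISRE, in front of target genes. The products sense foreign nucleic acid, block translation or viral entry, or feed back on the pathway, and plasmacytoid dendritic cells (pDC) are known as strong producers of the ligands.

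Live CD45+ cells from subcutaneous tumours were profiled one by one for their RNA. There was 1 library from CD94-KO mice and 1 from WT mice, both C57BL/6J and 6 to 8 weeks old, and each library was made from 5 tumour-bearing mice. CD94, encoded by Klrd1, is the chain that NK cells and some T cells pair with NKG2 proteins as receptors for the MHC class I molecule Qa-1. How the knockout was made and which tumour line was used were not given in the sources used here, and the cells of the 5 mice could not be separated. Each value is therefore that of 1 library, no difference between the genotypes could be tested, and the 95% intervals in brackets cover nothing beyond the error of counting.

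Klrd1 itself had 302 CPM (counts per 1000000 UMIs) in NK cells of the CD94-KO library and 654 CPM in those of the WT library. It was thus lower but not absent in the CD94-KO library, and whether the counted 3′ tags lie in the altered part of the gene is not known from the labels.

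The CD94-KO library had 4765 cells after filtering, with a median of 7953 unique molecular identifiers (UMIs), against 4571 cells and a median of 4845 UMIs in the WT library. Cells were assigned to classes by UMIs of marker genes that are not members. This placed 3125 CD94-KO and 2034 WT cells in exactly 1 class, set aside 328 and 340 cells that met several gates, and left 27.5% of CD94-KO and 48.1% of WT cells without a class. The held-out markers, which no gate used, ranked first or second among all classes in the class they mark, for example Apoe in macrophages, F10 in monocytes, Clec10a in type 2 conventional dendritic cells (cDC2), Spib in pDC and Eomes in NK cells. The libraries shared 8 cell barcodes. Within the main classes, depth differed less than between whole libraries, with a median of 11345 UMIs in CD94-KO and 12209.5 in WT macrophages, and 10984.5 and 11113 in pDC. Complement C1q transcripts, which macrophages make, reached 2.27% of the macrophage level in CD94-KO and 1.94% in WT NK cells, 3.33% and 3.08% in T cells, and 1.05% and 1.37% in pDC, a measure of free RNA and mixed droplets.

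Promoter sequences were available from RefSeq (build GRCm38.p6) for 31 of the listed members. The ISRE core was searched as GAAA, any 2 bases and GAAA, or on the other strand TTTC, any 2 bases and TTTC, with overlapping copies counted. It lay between 250 bases before and 50 after the start of 18 of those 31 genes (58.1%), against 1079 of 27025 genes in all (3.99%). The same search found it in 10 of 17 interferon-gamma targets and in 11 of 32 other type I targets with a sequence. With a C after the second GAAA it lay in 13 of the 31 (41.9%), against 0.944% of all genes. A match describes these letters only. The 170 bases just before the start are shown for 5 members on which the results turn: Isg15 (chr4:156200819-156200988, minus strand), the ubiquitin-like modifier detected in most macrophages; Ifit1 (chr19:34640719-34640888, plus strand), Ifit3 (chr19:34583359-34583528, plus strand) and Rsad2 (chr12:26456453-26456622, minus strand), whose UMIs sat together in few cells; and Bst2 (chr8:71537473-71537642, minus strand), which marked pDC in both libraries. All are written 5′ to 3′ on the gene's strand, and capitals mark the ISRE core.
Isg15: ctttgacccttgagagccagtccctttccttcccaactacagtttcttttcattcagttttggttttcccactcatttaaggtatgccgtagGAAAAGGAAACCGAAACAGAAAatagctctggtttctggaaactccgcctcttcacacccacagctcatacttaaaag
Ifit1: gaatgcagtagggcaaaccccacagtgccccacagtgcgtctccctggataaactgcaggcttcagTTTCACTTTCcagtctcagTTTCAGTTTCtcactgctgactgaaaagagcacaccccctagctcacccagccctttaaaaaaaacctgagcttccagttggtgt
Ifit3: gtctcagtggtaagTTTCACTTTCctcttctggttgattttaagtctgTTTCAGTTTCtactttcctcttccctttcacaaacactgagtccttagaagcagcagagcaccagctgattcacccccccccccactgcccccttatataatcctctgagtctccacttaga
Rsad2: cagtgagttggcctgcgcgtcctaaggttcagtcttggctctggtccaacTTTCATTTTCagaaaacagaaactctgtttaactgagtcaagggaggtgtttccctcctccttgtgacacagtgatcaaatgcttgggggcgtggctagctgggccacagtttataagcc
Bst2: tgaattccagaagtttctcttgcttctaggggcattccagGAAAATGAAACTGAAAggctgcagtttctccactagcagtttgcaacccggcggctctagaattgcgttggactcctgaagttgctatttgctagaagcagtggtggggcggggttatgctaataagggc
Isg15 had 3 overlapping copies, which began 66 to 78 bases before the start. Ifit1, Ifit3 and Bst2 had 2 copies each and Rsad2 had 1, at 120 bases. In Ifit1, Ifit3 and Rsad2 the core read on the opposite strand, and in Isg15 and Bst2 on the gene's own strand.

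The first question was where these genes are expressed. Summed over the 40 members and scaled to the UMIs of the class, the level was highest in cDC2, at 11227 CPM in CD94-KO and 10816 in WT. Monocytes followed with 10798 CPM in CD94-KO and 10030 in WT. Macrophages had 9018 CPM in CD94-KO and 7194 in WT, and pDC had 8504 and 8861, so that these 2 classes took opposite places in the order of the 2 libraries. Well below came T cells with 3995 CPM in CD94-KO and 3949 in WT, and mature regulatory dendritic cells (mregDC) with 3662 and 3000. Non-immune cells that had passed the sort had 2209 CPM in CD94-KO and 2237 in WT, and NK cells were lowest with 1900 and 1727. For these 8 classes, the counting intervals of neighbours in this order did not overlap within either library. The plot of summed levels by class shows a myeloid group and pDC above lymphocytes in both genotypes.

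**Figure D1:**
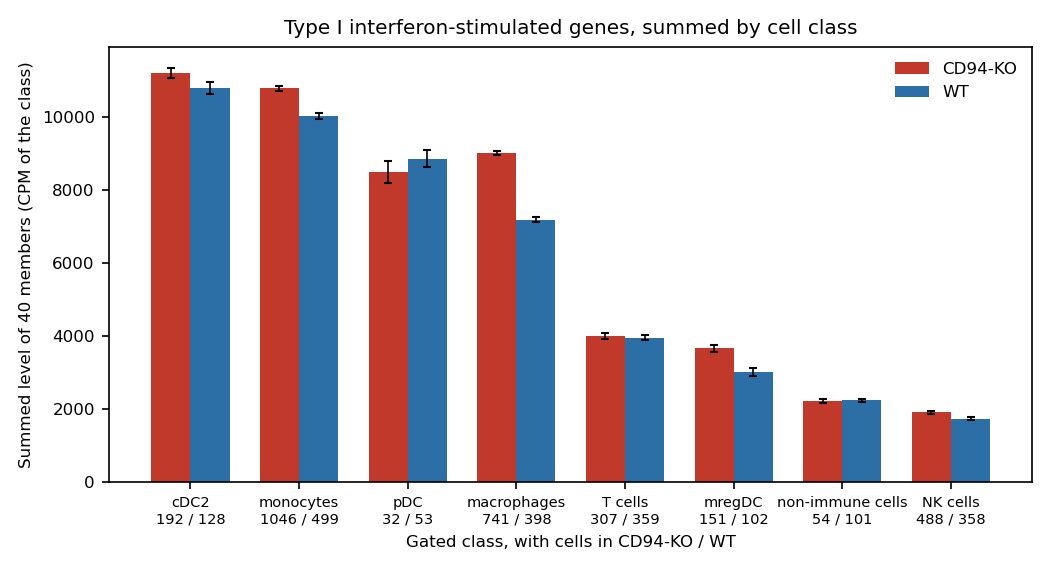
Bars give the summed level of the 40 members in CPM of the class, CD94-KO left of WT, and error bars the 95% Poisson interval of the count. The 4 leading classes lie at 7194 CPM or more in both libraries, the others at 3995 or less, and the widest gap between genotypes among the 4 leading classes is in macrophages, 9018 against 7194 CPM.

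The members did not share a single pattern. Among the 8 classes with at least 20 cells in both libraries, 25 members had their highest level in the same class in both. Of these, 11 peaked in monocytes, among them Zbp1, a sensor of Z-form nucleic acid, the 3 HIN-200 DNA-binding proteins Ifi203, Ifi204 and Ifi205, and Slfn1, Slfn2 and Slfn8 of the Schlafen family of growth and translation regulators. pDC held the highest level of 6 members: the transcription factors Irf7 and Stat2, the virion tether Bst2, the surface protein Ly6e, Ifi44, and Trim30a, which restrains Toll-like receptor signalling. cDC2 led for 5 (Ifitm3, which blocks viral entry, Slfn5, Ifi35, Xaf1 and Phf11b), mregDC for Herc6, a ligase that attaches ISG15 in mice, and for the antiviral GTPase Mx1, and NK cells for Ddx58, the RNA sensor RIG-I. The remaining 15 members, Isg15, Rsad2 and the Ifit genes among them, peaked in a different class in each library.

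Bst2 and Ifi44 differed widely between pDC and the next class. Bst2 had 3521 CPM in CD94-KO pDC and 3197 in WT pDC, against 456 and 476 CPM in cDC2, the next class. Ifitm3 was the opposite, with 4855 CPM in CD94-KO and 4881 in WT cDC2 but 211 and 604 CPM in pDC. Ifi44 was highest in pDC, at 45.6 CPM in CD94-KO and 37.4 in WT; the next class had 4.82 CPM in CD94-KO (monocytes) and 6.56 in WT (cDC2). The sum is thus carried by few genes: Ifitm3, Ifi27l2a and Ly6e made up 56.3% of the member UMIs in CD94-KO and 55.4% in WT macrophages, and Bst2, Ly6e and Ifi27l2a 81.6% in CD94-KO and 71.8% in WT pDC.

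**Figure D2:**
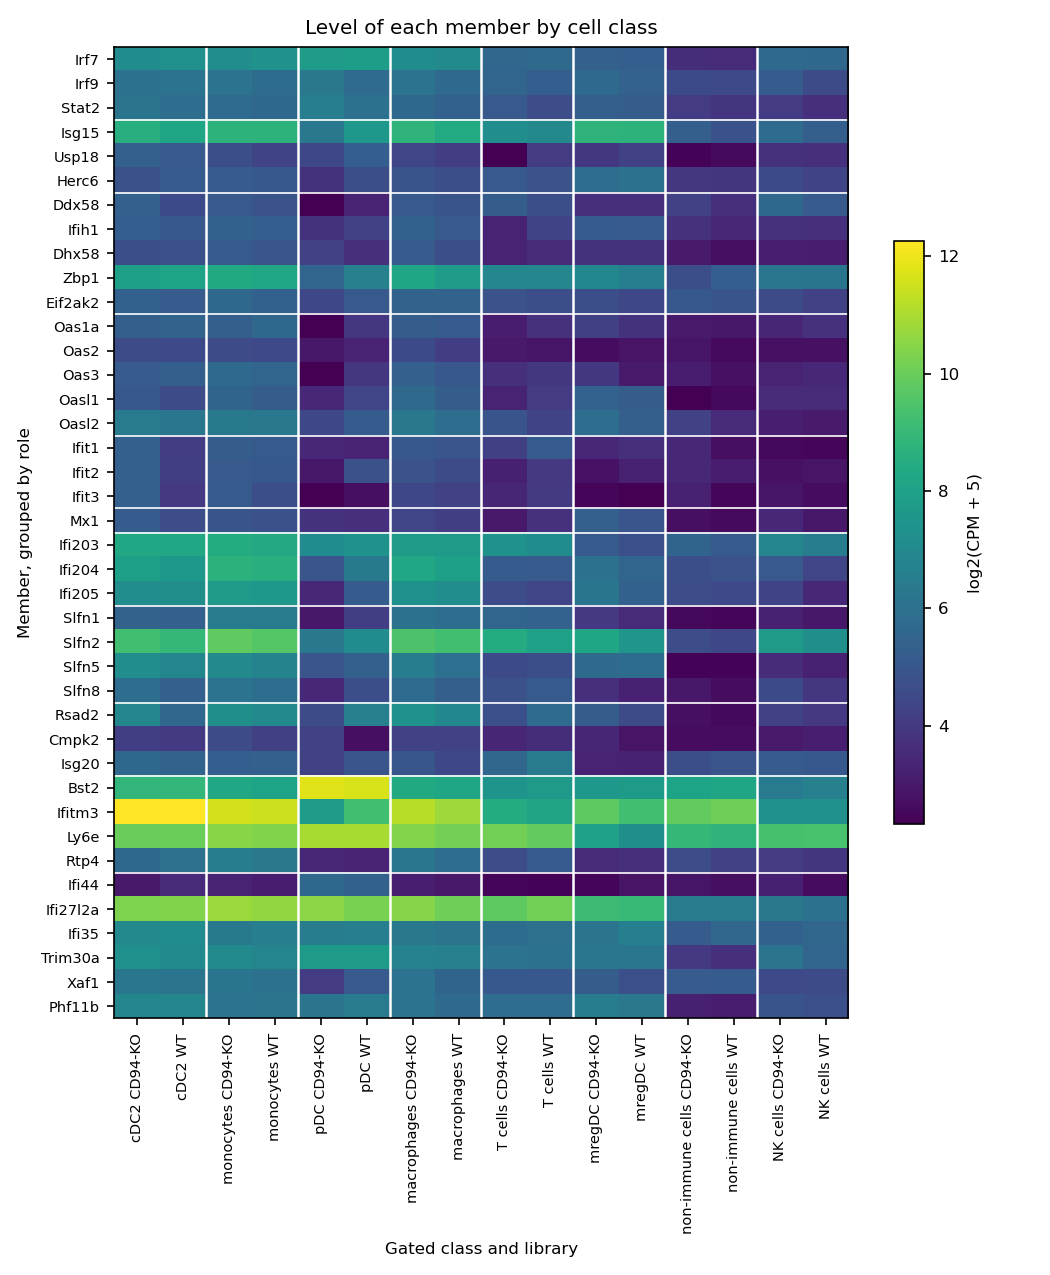
Rows are members grouped by role, columns the 8 classes with the CD94-KO library left of the WT library, and colour is log2(CPM + 5). Rows are to be read across, since UMIs near the 3′ end are captured with unequal efficiency between genes. Bst2 is brightest in pDC and Ifitm3 in cDC2 in both libraries.

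In macrophages the summed members were higher in CD94-KO than in WT cells, and so was each of the 40 members in the class sums, 35 of them by less than 1.5-fold. For some members that direction depended on how cells were weighed: with each cell weighed the same 35 of 40 were higher, and with each cell thinned to 3000 UMIs 31 were higher and 9 lower (Irf7, Herc6, Ifih1, Ifit1, Ifit2, Ifit3, Cmpk2, Ifi44 and Ifi35). The ratio of the summed members was 1.24 and 1.23 in these settings. The summed level was 9018 CPM in 741 CD94-KO cells and 7194 CPM in 398 WT cells, a ratio of 1.25 [1.24 to 1.27]. All 40 members reached 20 UMIs over both libraries. The median difference over members, CD94-KO minus WT in log2(CPM + 5), was 0.27, against -0.01 over the 10285 genes measured. Of the 40, 5 passed 1.5-fold higher and 0 passed 1.5-fold lower, beside 4.31% of all measured genes higher and 6.23% lower. The members vary together over cells, so their directions are not independent of each other. Over all kept cells, where the libraries also differ in their mix of classes, 4 members passed higher, beside 4.72% of genes, and 0 lower, beside 13.3%.

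By role, the transcription factors had the smallest summed ratio, 1.16 [1.08 to 1.25], which was 1.02 [0.89 to 1.19] in thinned cells. Irf7, which amplifies interferon production, had 137 CPM in CD94-KO and 128 in WT macrophages, a ratio of 1.08 [0.98 to 1.18]. Irf9 and Stat2, which act in the ISRE-binding complex, had 63.5 and 46.0 CPM in CD94-KO against 47.3 and 37.3 in WT, ratios of 1.34 [1.16 to 1.56] and 1.23 [1.04 to 1.46]. In these class sums the interval of Irf7 spans 1 and those of Irf9 and Stat2 do not. Thinned CD94-KO macrophages had a mean of 0.423 Irf7, 0.188 Irf9 and 0.153 Stat2 UMIs per cell. Thinned WT macrophages had 0.441, 0.158 and 0.148. Isg15 had 436 CPM in CD94-KO and 331 in WT macrophages, a ratio of 1.32 [1.25 to 1.39]. Usp18, which removes ISG15 and blocks the receptor, had 16.1 CPM in CD94-KO and 12.5 in WT, a ratio of 1.29 [0.97 to 1.74].

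Among the sensors, Zbp1 had 287 CPM in CD94-KO and 212 in WT macrophages (ratio 1.35 [1.26 to 1.45]). Dhx58, the RIG-I-like receptor LGP2, had 31.4 CPM in CD94-KO and 20.9 in WT and just passed 1.5-fold, with a ratio of 1.504 [1.21 to 1.88]. Ddx58, Ifih1 (the RNA sensor MDA5) and the kinase Eif2ak2 had ratios of 1.16, 1.28 and 1.01. The OAS family, whose enzymes make the 2′,5′-oligoadenylates that activate RNase L, had 211 CPM in CD94-KO and 158 in WT summed over its 5 members, a ratio of 1.34 [1.23 to 1.45]. Of these, Oasl1, which represses Irf7 translation in mice, passed 1.5-fold with 49.3 CPM in CD94-KO and 32.9 in WT, and Oasl2 had 74.1 and 54.8 CPM. OAS, IFIT, HIN-200 and Schlafen genes have close copies, so the split of UMIs within each family is uncertain.

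The IFIT family, whose proteins bind foreign RNA and block translation, was sparse, with 69.7 CPM in CD94-KO and 59.5 in WT macrophages over 3 members, a ratio of 1.17 [1.03 to 1.34], but it turned to 0.92 with each cell weighed the same and to 0.80 [0.61 to 1.04] in thinned cells. Mx1 had 16.2 CPM in CD94-KO and 12.9 in WT, and its interval of 0.95 to 1.69 spans 1. Rsad2, the radical enzyme viperin, which makes a chain-terminating nucleotide, had 166 CPM in CD94-KO and 119 in WT, a ratio of 1.40 [1.28 to 1.54] that was 1.08 with each cell weighed the same and 1.03 [0.85 to 1.24] in thinned cells. Its genomic neighbour Cmpk2, which supplies the nucleotide, had 14.7 and 14.5 CPM. The exonuclease Isg20 had 26.3 CPM in CD94-KO and 17.5 in WT, and Slfn5 and the apoptosis-linked Xaf1 had the largest ratios, 1.52 [1.33 to 1.73] and 1.54 [1.32 to 1.80]. Of the abundant membrane proteins, Ifitm3 had a ratio of 1.33, and Ly6e and Bst2 had smaller ones of 1.15 and 1.13. Ifitm3 had 2338 CPM in CD94-KO and 1755 in WT, Ly6e 1344 and 1168, and Bst2 322 and 286.

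The difference was not the same in size in all macrophages. Cells were split by at least 3 UMIs of Arg1, an arginine-degrading enzyme, and of Nos2 and Cxcl9, which interferon-gamma is known to induce. With Nos2 or Cxcl9 alone the summed members had 11664 CPM in CD94-KO and 9649 in WT cells; with both sets they had 8212 and 7264. With Arg1 alone they had 6089 CPM in CD94-KO and 4588 in WT; cells with neither had 12592 and 9606. The ratios were 1.21, 1.13, 1.33 and 1.31, so CD94-KO was higher in each of the 4 subsets.

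Beside the members, other lists differed in macrophages. Monocyte markers summed to 4414 CPM in CD94-KO and 3140 in WT macrophages, with 7 of 7 higher in CD94-KO, and cell-cycle markers to 36.9 and 80.4 CPM, with 0 of 4 higher. Of the 4 RNA quality genes, 3 were lower in CD94-KO macrophages: Neat1 had 269 CPM in CD94-KO and 408 in WT, AY036118 590 and 878, and Gm42418 26386 and 33817. Malat1 was higher, with 15130 CPM in CD94-KO and 12782 in WT, and the mitochondrial share was 1.49% in CD94-KO and 2.06% in WT. Their part in the result was not tested.

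Within each library, macrophages with a higher share of member UMIs had more RNA of Ly6c2, the only listed monocyte marker that was followed over the bins below. When the macrophages of a library were ordered by their summed member CPM and divided into 4 bins of equal size, Ly6c2, a surface protein of young monocytes, had 122 CPM in the lowest and 2168 in the highest bin of CD94-KO cells, and 71.7 and 1453 CPM in WT cells. Arg1 ran the other way, with 5313 CPM in the lowest and 933 in the highest bin of CD94-KO cells and 3769 and 945 CPM in WT cells. The mannose receptor Mrc1 followed Arg1. C1q was lower in higher bins of WT cells, with 3811 CPM in the lowest and 2555 in the highest, but not of CD94-KO cells, with 3044 and 3252. The cDC2 markers Cd209a and Flt3 together had 3.95 CPM in the lowest and 134 in the highest bin of WT cells. In CD94-KO cells they had 19.6 and 48.5 CPM. Median UMIs per cell were 14442 and 11372 in these WT bins, and 11974 and 10962 in those of CD94-KO. The part of cDC2 markers and depth in the order of bins was not tested. The plot by bin shows the same order of the lowest and highest bins in both libraries for Ly6c2, Arg1 and Mrc1, with the CD94-KO line above the WT line for Ly6c2 in each of the 4 bins.

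**Figure D3:**
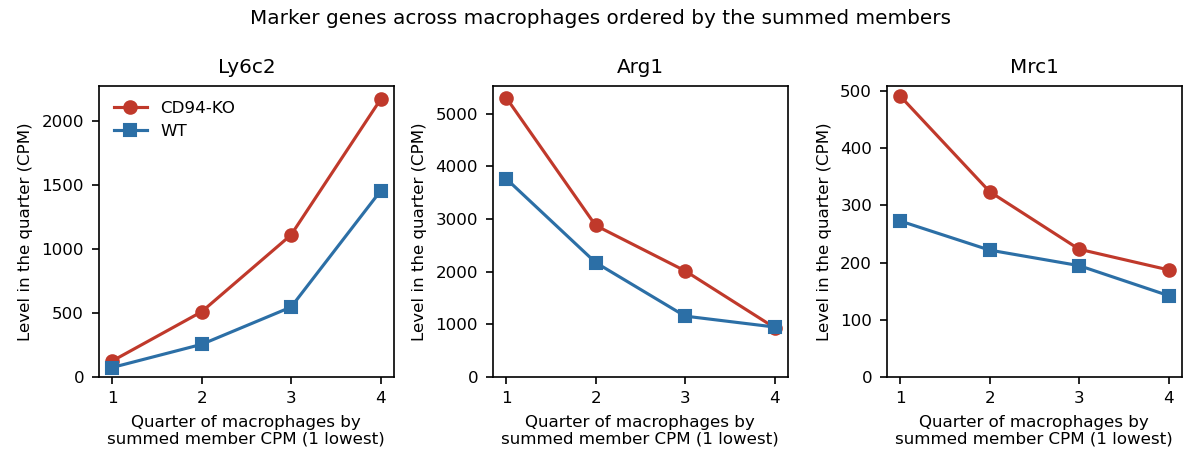
Each point is the level, in CPM, of a marker gene in 1 of 4 equal bins of the macrophages of a library, ordered by summed member CPM from the lowest (1) to the highest (4), in CD94-KO and WT. Ly6c2 is highest in the top bin and Arg1 and Mrc1 in the bottom bin of both libraries.

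Over single macrophages thinned to 3000 UMIs, the genes outside the list that varied most like the summed members were Plac8, Ms4a4c, Ly6c2, B2m, Samhd1, Ms4a6c, Ms4a6b, H2-T23, Ly6a and Gbp2, among 4947 genes present in at least 5% of cells of both libraries. Plac8 and Ly6c2 are among the listed monocyte markers, Ms4a4c is a listed other type I target and Gbp2 a listed interferon-gamma target. Pearson's r was highest for Plac8, 0.66 in 718 CD94-KO cells and 0.67 in 379 WT cells, and lowest of these 10 for Gbp2, 0.39 and 0.40. The lowest were Fn1, Arg1, Spp1, Pdpn and Rpl5, with Fn1 at -0.42 in CD94-KO and -0.44 in WT. These cells share a library and a fixed depth, and the values are descriptive.

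The spread over cells was wide in macrophages. At 3000 UMIs per cell, the members together had a median of 24 UMIs in CD94-KO macrophages (5th to 95th percentile 5 to 63, highest 158) and 18 UMIs in WT macrophages (4 to 55.1, highest 147). The coefficient of variation beyond counting error was 0.662 over 718 CD94-KO cells and 0.811 over 379 WT cells, so the WT cells had the lower centre and the larger relative spread. The 10% of cells with the most member UMIs held 24.5% of them in CD94-KO and 28.5% in WT. In pDC the spread over all members was narrower, with a median of 24 UMIs in both libraries, 13 to 42 in 31 CD94-KO cells and 9.5 to 45 in 51 WT cells, and a coefficient of 0.357 and 0.355. Without the 4 membrane proteins Bst2, Ifitm3, Ly6e and Rtp4 the coefficient was 0.785 in CD94-KO and 0.775 in WT pDC, against 0.810 and 1.01 in macrophages. Thinning left out 23 CD94-KO and 19 WT macrophages, and 1 and 2 pDC.

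**Figure D4:**
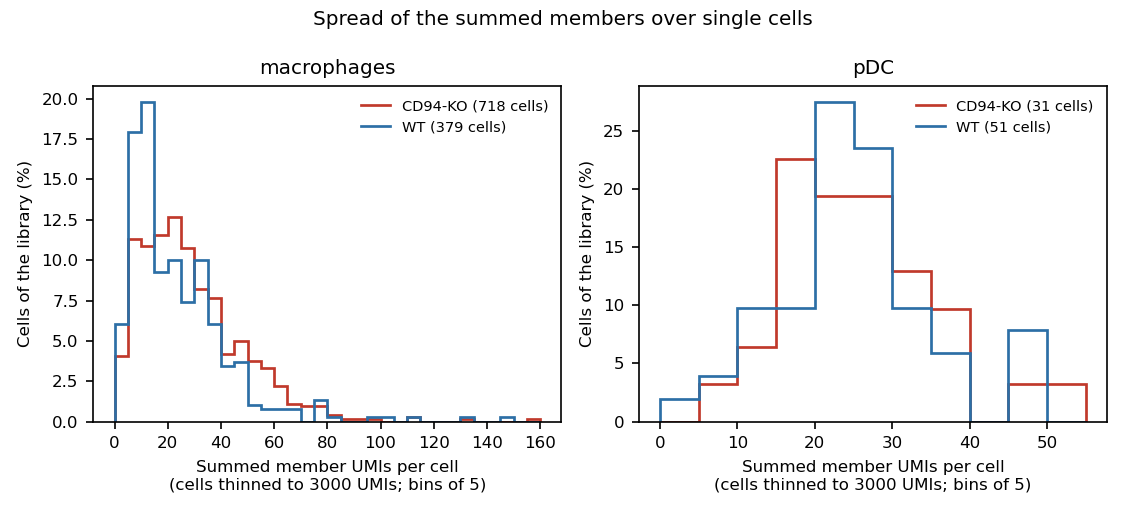
Histograms give the share of cells, in percent of the library's class, by summed member UMIs after thinning each cell to 3000 UMIs, in bins of 5, for CD94-KO and WT. The macrophage median is 24 UMIs in CD94-KO and 18 in WT with long right tails in both, while in pDC both medians are 24.

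A few members were spread very unevenly. Before thinning, Isg15 had at least 1 UMI in 72.1% of CD94-KO and 66.1% of WT macrophages, whereas Ifit3 had one in 8.23% and 8.29%. Single members varied most beyond counting for Rsad2, with a variance to mean ratio of 9.84 in CD94-KO and 14.0 in WT macrophages after thinning, against 1.08 and 0.978 for Irf9. Among the 780 pairs of members, Ifit1, Ifit2, Ifit3, Rsad2 and Usp18 made up 10 of the 15 highest correlations in macrophages. Ifit2 with Ifit3 had r of 0.43 in CD94-KO and 0.75 in WT macrophages, and Ifit1 with Rsad2 0.45 and 0.55, beside a median over pairs of 0.13 and 0.14.

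These 5 genes, grouped after that pattern was seen, reached 5 or more UMIs in 27 of 718 CD94-KO macrophages, 3.76% [2.49 to 5.42], and in 11 of 379 WT macrophages, 2.90% [1.46 to 5.13]. Those few cells held 59.0% of the UMIs of the 5 genes in CD94-KO and 61.2% in WT, while 75.5% and 80.2% of macrophages had 0. In the cells that carried them the other members had a median of 58 UMIs in CD94-KO and 59 in WT, against 21 and 14 in cells with 0. In monocytes the same held for 45 of 1026 CD94-KO cells, 4.39% [3.22 to 5.83], and for 20 of 487 WT cells, 4.11% [2.53 to 6.27]. The intervals of the genotypes overlap in both classes. The cut falls in a continuous range, with 15 CD94-KO and 6 WT macrophages at 4 to 6 UMIs.

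Monocytes, which had higher levels than macrophages in both libraries, differed less by genotype. The summed members had 10798 CPM in 1046 CD94-KO cells and 10030 CPM in 499 WT cells, a ratio of 1.08 [1.07 to 1.09]. No member passed 1.5-fold in either direction, beside 5.66% of genes higher and 4.01% lower, and 34 of 40 ratios were above 1 (29 of 40 with each cell weighed the same, where Oasl2, Ifit1, Ifit2, Mx1 and Rsad2 turned below 1, and 29 in thinned cells). On the log2(CPM + 5) scale, Ifit3 was the furthest up with 30.4 CPM in CD94-KO and 21.2 in WT, and Oas1a the furthest down with 35.3 and 45.4 CPM. Irf7 was also lower, 142 CPM in CD94-KO and 162 in WT, a ratio of 0.88 [0.81 to 0.96].

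In cDC2 the sum hardly differed, 11227 CPM in CD94-KO and 10816 in WT (ratio 1.04 [1.02 to 1.06]), while the IFIT genes and Rsad2 did. Ifit3 had 36.8 CPM in CD94-KO and 10.5 in WT, Ifit1 35.9 and 12.5, and Rsad2 116 and 43.9, ratios of 3.51 [2.04 to 6.42], 2.88 [1.73 to 5.03] and 2.63 [2.01 to 3.50]. With Ifit2, Ddx58, Mx1 and Slfn8 they were the 7 of 39 measured members that passed 1.5-fold higher, beside 11.4% of all genes, and 0 passed lower, beside 5.05%. Those UMIs came from few cells: 5 of 192 CD94-KO cDC2 held 77.7% of the Rsad2 UMIs and 1 cell held 132 of 264, while 5 of 128 WT cDC2 held 58.2%. For Ifit3, 5 cells held 60.7% of the CD94-KO and 68.8% of the 16 WT UMIs, and for Ifit1 61.0% and 73.7%. Ifit1, Ifit2, Ifit3, Rsad2 and Usp18 together reached 5 or more UMIs in 5 of 186 thinned CD94-KO cDC2, 2.69% [0.878 to 6.16]. In WT they did so in 3 of 124, 2.42% [0.502 to 6.91], so the share of such cells was alike. With each cell weighed the same the ratios of Ifit3, Ifit1 and Rsad2 were 3.57, 2.36 and 2.25. The 3 abundant members were level, with Ifitm3 at 4855 CPM in CD94-KO and 4881 in WT.

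In mregDC, dendritic cells that carry antigen to lymph nodes, the sum was 3662 CPM in CD94-KO and 3000 in WT, a ratio of 1.22 [1.17 to 1.28]. Of the 29 members that reached 20 UMIs, 8 passed 1.5-fold higher, beside 10.6% of all genes, and 0 lower, beside 7.79%. Slfn2 had 290 CPM in CD94-KO and 176 in WT, Ifi205 67.3 and 37.8, and Ly6e 252 and 151. Isg15 was level, at 433 CPM in CD94-KO and 421 in WT. The markers of monocytes summed to 449 CPM in CD94-KO and 260 in WT mregDC, 6 of 7 higher, and their part in the result was not tested. cDC1, with 23 CD94-KO and 13 WT cells, had 7102 CPM in CD94-KO and 5307 in WT.

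pDC split the list. The 3 most abundant members were equal or higher in CD94-KO: Bst2 had 3521 CPM in 32 CD94-KO cells and 3197 in 53 WT cells, Ly6e 1960 and 1957, and Ifi27l2a 1462 and 1210. The rest of the members together had 1561 CPM in CD94-KO and 2497 in WT. The total was 8504 CPM in CD94-KO and 8861 in WT, a ratio of 0.96 [0.92 to 1.004]. Of the 24 members that reached 20 UMIs, 1 passed 1.5-fold higher, beside 9.40% of all genes, and 12 lower, beside 14.0%; the median difference was -0.52 over these members and -0.02 over all genes.

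Isg15 had 74.1 CPM in CD94-KO and 192 in WT pDC, a ratio of 0.39 [0.24 to 0.59]. Rsad2 had 19.9 CPM in CD94-KO and 94.4 in WT, 0.21 [0.08 to 0.46], and Ifitm3 211 and 604, 0.35 [0.27 to 0.45]. Ifi204, Zbp1 and Slfn2 had ratios of 0.34, 0.45 and 0.56 with intervals below 1. The transcription factors had no such difference: Stat2 had 91.2 CPM in CD94-KO and 60.2 in WT (1.51 [0.91 to 2.50]), Irf9 74.1 and 50.5, and Irf7 217 and 228. The 16 members under 20 UMIs, among them all IFIT genes and Mx1, were too sparse to compare.

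These UMIs lay in few cells of either library. For Ifitm3, 5 cells held 70.3% of the CD94-KO and 81.1% of the WT UMIs, and for Isg15 80.8% and 73.7%. Rsad2 had 7 UMIs in 3 CD94-KO cells, and 5 WT cells held 89.7% of its 58. With each cell weighed the same, the ratios of Isg15, Ifitm3 and Rsad2 were 0.57, 0.58 and 0.30, and that of Ifi204 was 0.89. In thinned cells Isg15 had a ratio of 0.78 [0.33 to 1.74] and Ifitm3 of 0.71 [0.43 to 1.15], and Ifi204 turned to 1.65 [0.38 to 7.15]. Of the 24 members, 6 were above 1 in the class sums, 6 with each cell weighed the same and 11 in thinned cells. Without Bst2, Ly6e and Ifi27l2a, the median cell had 1344 CPM of members in CD94-KO and 1150 in WT, and the highest cell 4802 in CD94-KO and 8954 in WT. For these remaining members, the median pDC thus did not show the lower level that their class sum did. Their upper quartile was lower in CD94-KO, at 2010 CPM against 2519 in WT. Over all members, the median pDC was also lower in CD94-KO, with 7991 CPM against 8480 in WT. Macrophage markers summed to 430 CPM in CD94-KO and 610 in WT pDC, with 1 of 9 higher in CD94-KO, and their part in the result was not tested.

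T cells had equal sums, 3995 CPM in 307 CD94-KO cells and 3949 in 359 WT cells (ratio 1.01 [0.98 to 1.04]), with members higher and lower. The libraries also differed in their mix of T cell subsets. Interleukin-17-type gamma-delta T cells numbered 116 in CD94-KO and 59 in WT, and regulatory T cells 32 and 66. The part of this mix in the T cell values was not tested. Of 38 measured members, 2 passed 1.5-fold higher, beside 10.4% of all genes, and 10 lower, beside 6.94%. Usp18 had 0 UMIs in CD94-KO and 32 in WT T cells, at least 7.49-fold lower against a floor of 3 UMIs in the CD94-KO class. Those 32 UMIs lay in 15 WT cells, and 5 cells held 65.6% of them. Rsad2 had 22.2 CPM in CD94-KO and 49.9 in WT, Ifit1 13.6 and 30.1, and Isg20 43.9 and 79.7, ratios of 0.44 [0.31 to 0.63], 0.45 [0.28 to 0.70] and 0.55 [0.42 to 0.71]. Isg20 was found in 18.6% of CD94-KO and 32.0% of WT T cells, whereas 5 cells held 70.5% of the CD94-KO and 78.0% of the WT Rsad2 UMIs. For Ifit1, 5 cells held 63.0% of the CD94-KO and 50.6% of the WT UMIs. With each cell weighed the same, Rsad2 had a ratio of 0.72 and Isg20 of 0.53. Ddx58 and Oasl2 were the pair that passed higher, Oasl2 with 25.2 CPM in CD94-KO and 14.9 in WT.

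In class sums, T cell subsets differed in direction, whereas the median cell was level or higher in CD94-KO in all 5. Conventional CD4 T cells had 6957 CPM of members in 49 CD94-KO cells and 3840 in 60 WT cells, a ratio of 1.81 [1.70 to 1.93], with Isg15 at 267 CPM in CD94-KO and 35.0 in WT. Regulatory T cells had 6371 CPM in 32 CD94-KO cells and 7297 in 66 WT cells (0.87 [0.82 to 0.93]), and interleukin-17-type gamma-delta T cells 3467 in 116 and 4265 in 59 cells (0.81 [0.76 to 0.87]). The median regulatory T cell, however, had 5681 CPM in CD94-KO and 5095 in WT, and 5 cells held 37.6% of the CD94-KO and 21.6% of the WT member UMIs. The median gamma-delta cell had 3059 CPM in CD94-KO and 3044 in WT, and 5 cells held 15.5% of the CD94-KO and 40.9% of the WT member UMIs. CD8 T cells had 2744 CPM in 38 CD94-KO cells and 2527 in 60 WT cells, with medians of 2173 and 1609, and the remaining T cells had medians of 2476 and 2238. Among conventional CD4 T cells the median cell had 4297 CPM in CD94-KO and 2793 in WT, 5 cells held 44.4% of the CD94-KO and 31.8% of the WT member UMIs, and macrophage markers summed to 283 CPM in CD94-KO and 184 in WT. Their part in the result was not tested.

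**Figure D5:**
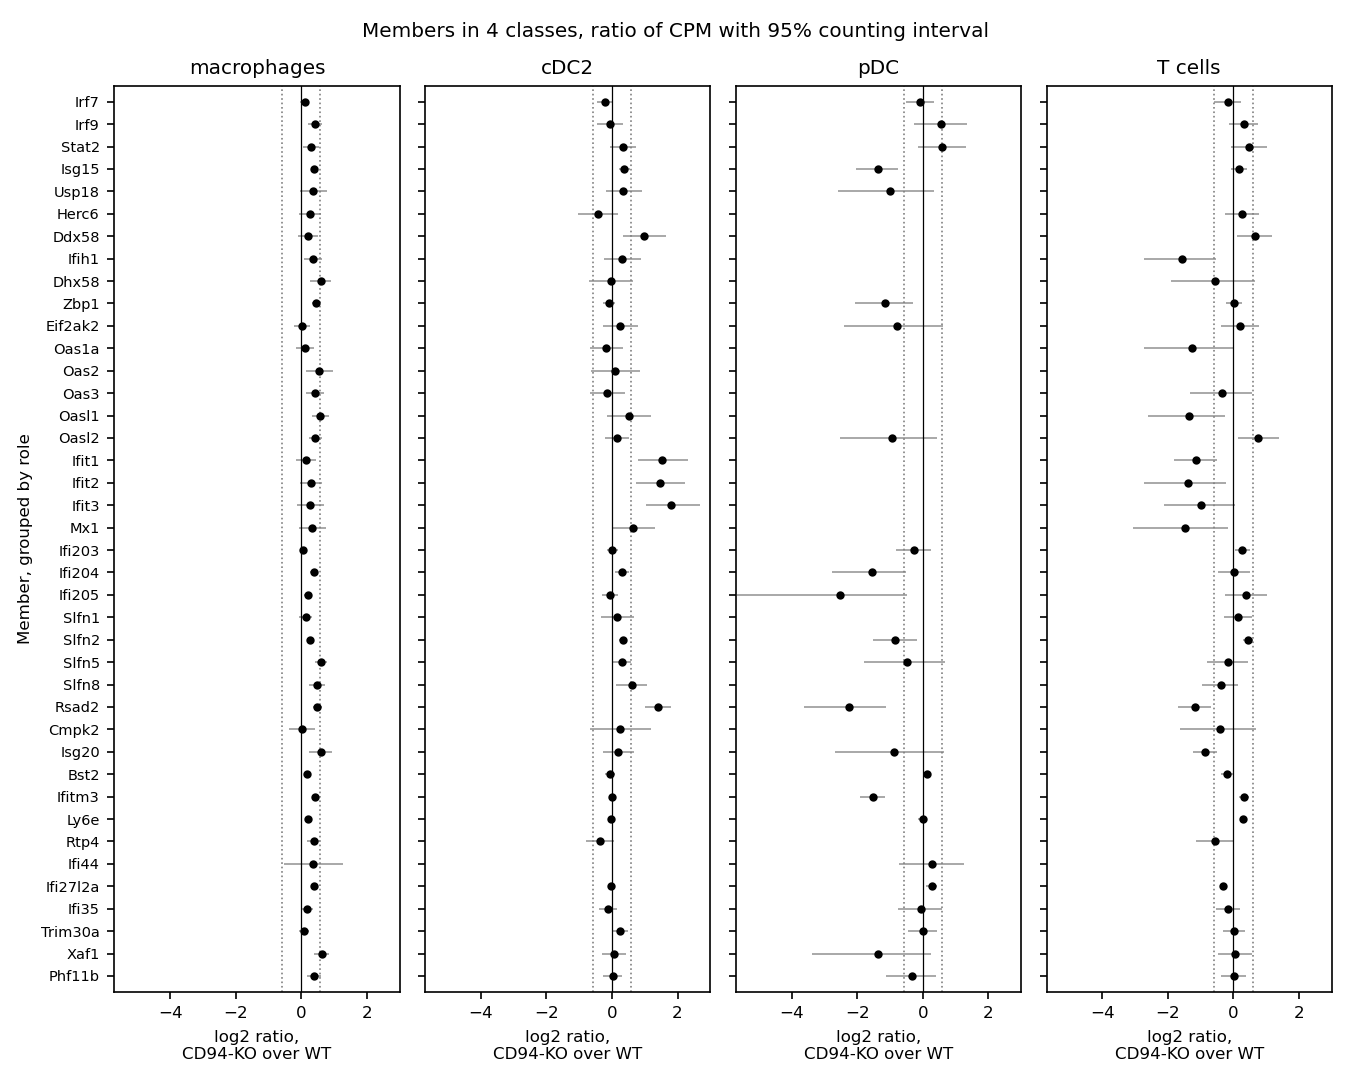
Points are log2 ratios of CPM, CD94-KO over WT, for members that reach 20 UMIs when the libraries are added and 1 UMI in each, with 95% counting intervals, and dotted lines mark 1.5-fold in either direction. The ratios are of class sums: all macrophage points lie right of 0, though 9 of 40 fall below it in cells thinned to 3000 UMIs, the cDC2 points furthest right are the IFIT genes and Rsad2, and the pDC and T cell points spread to the left.

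NK cells, the class in which CD94 is mostly found, had the lowest sum, 1900 CPM in 488 CD94-KO cells and 1727 in 358 WT cells, a ratio of 1.10 [1.06 to 1.14]. Of 36 measured members, 9 passed 1.5-fold higher, beside 11.9% of all genes, and 1 lower, beside 3.75%. The median difference was 0.18 over members and 0.10 over all genes measured, so the median gene also leaned to CD94-KO in this class. Scaling between the libraries (TMM) moved every NK log2 ratio by -0.12. Irf9 had 32.4 CPM in CD94-KO and 19.3 in WT, Ifi204 29.2 and 15.9, and Trim30a 66.4 and 41.8, ratios of 1.68, 1.83 and 1.59 with intervals above 1, and of 1.39, 1.07 and 1.55 in thinned cells. Of the 36 ratios 27 were above 1 in the class sums, 23 with each cell weighed the same and 21 in thinned cells. Ly6e, the leading member, had 646 CPM in CD94-KO and 671 in WT, and Isg15 50.6 and 35.2. The IFIT genes, Mx1 and Usp18 stayed at or below 8.43 CPM in CD94-KO and 7.82 in WT.

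The ligands of the pathway were almost undetected. None of the 18 type I interferon genes reached 20 UMIs in a main class, and pDC had 0 UMIs of any of them in both libraries. Ifnb1, interferon-beta, had 12 UMIs in CD94-KO and 6 in WT macrophages and 10 and 7 in monocytes. A count of 0 in pDC limits what was captured at this depth and not what the cells can make. The receptor subunits were level in macrophages, with Ifnar1 at 104 CPM in CD94-KO and 100.4 in WT and Ifnar2 at 156 and 144, and in pDC with Ifnar2 at 407 CPM in both. Of the 13 genes that induce interferon, such as the DNA sensor adaptor Tmem173 and Irf3, 0 passed 1.5-fold in macrophages. Beside this, 4.31% of all measured genes passed higher and 6.23% lower, so a count of 0 among so few genes does not set the list apart. Of the 5 feedback genes 1 passed higher and 0 lower: Socs1, an inhibitor of JAK kinases, had 60.4 CPM in CD94-KO and 27.7 in WT macrophages. Socs1 also passed 1.5-fold higher in monocytes, cDC2 and mregDC, but not in NK or T cells.

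Among other known type I targets, 31 of 34 measured genes had a ratio of class sums above 1 in macrophages; 3 passed 1.5-fold higher (Ifit3b, Ifit1bl1 and Trim30b), beside 4.31% of all genes, and 0 lower, beside 6.23%. Genes best known as targets of interferon-gamma, which overlap with type I targets, were counted in the same way. In T cells 11 of 20 passed 1.5-fold higher and 0 lower, beside 10.4% and 6.94% of all genes, among them Irgm1, a GTPase of cell-autonomous defence, with 78.7 CPM in CD94-KO and 33.6 in WT, and Gbp2, a guanylate-binding protein, with 203 and 98.1. The median difference over that list was 0.64 in T cells, beside -0.14 over the 38 type I members. The mix of T cell subsets differed between the libraries, and its part in these values was not tested. In NK cells 8 of 19 passed higher and 0 lower, beside 11.9% and 3.75% of all genes. In pDC 0 of 13 passed higher and 4 lower, beside 9.40% and 14.0%, with Gbp2 at 31.3 CPM in CD94-KO and 138 in WT. In macrophages 4 of 21 passed higher and 1 lower, beside 4.31% and 6.23%, with Gbp2 at 713 CPM in CD94-KO and 478 in WT. There, 19 of the 21 interferon-gamma targets had a ratio above 1. Their median difference was 0.30, beside 0.27 over the 40 type I members, so the higher level in CD94-KO macrophages was not particular to the members. In monocytes the medians were 0.35 over interferon-gamma targets and 0.14 over the members. Ifng itself had 359 CPM in CD94-KO and 142 in WT NK cells, and 164 and 176 in T cells.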

How the data were processed

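The deposited values are raw counts of UMIs per gene and cell barcode, which the authors produced using Cell Ranger (version 5.0.0 per the file headers); per the labels' protocols, barcodes not called as cells had been removed. Per the submitters' processing notes, mm10 and Seurat 4.0 were used, without a stated step, and no release of the annotation was given. A barcode was kept if it had 500 or more UMIs, 300 or more genes and less than 10% mitochondrial UMIs. Classes were gated on summed UMIs of markers: macrophages needed 3 of C1qa, C1qb and C1qc and 3 of Csf1r, Adgre1, Cd68, Mrc1 and Ms4a7; monocytes 5 of Ly6c2, Hp, Vcan, Chil3 and Ccr2 and 2 of Csf1r, Cd68 and Adgre1, with C1q and cDC2 markers each under 3; cDC2 3 of Cd209a and Flt3 with C1q under 3; mregDC 10 of Ccr7, Fscn1, Ccl22, Il4i1 and Cacnb3; pDC 4 of Siglech, Ccr9, Klk1 and Cox6a2; T cells 3 of Cd3d, Cd3e and Cd3g; and NK cells 3 of Ncr1, Klrb1c, Klre1, Klra4 and Klra8. Of these gates, all but those of T cells and cDC2 also needed at least 2 different markers, and that of mregDC 3. Thresholds were set after the marker distributions were seen. No doublet caller was used; cells that met several gates were set aside.

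Counts were summed per class and library (40 members of 41 listed) and scaled to CPM of the class. Sums were given exact Poisson intervals, ratios exact conditional binomial intervals and shares exact Clopper-Pearson intervals, at 95%. Members and genes with at least 20 UMIs over both libraries were compared at a fixed 1.5-fold. Members, gene lists and the subsets of macrophages were chosen with earlier results of these data known. For each class the text names members from a fixed set of 14 and those with the largest differences in log2(CPM + 5), up to 6 in each direction; genes of the lists; and the 10 genes most correlated with the sum in macrophages. Named beyond this rule, after their values were seen, are genes that illustrate a class peak or a correlated group. Spread was measured on cells thinned to 3000 UMIs, as the standard deviation left after subtracting the mean from the variance, over the mean. Ratios were also taken from mean CPM per cell and, chosen after seeing the data, from thinned cells. The intervals and the thinning were tested on simulated data. Alternatives used edgeR 4.0.16 (TMM) and DESeq2 1.42.0 (median of ratios) only for scaling factors. Python 3.11.15, numpy 2.4.6, scipy 1.17.1 and pandas 2.3.3 were used.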

Additional observations from a re-analysis of the deposited data

How the results depend on the processing

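No paired analysis was possible because there was 1 library per genotype and the labels carry no replicate numbers. All values here are log2 ratios, CD94-KO over WT, unless named otherwise. The macrophage sum of 0.33 kept its direction in all 14 alternatives: 0.35 with TMM and 0.35 with median-of-ratios scaling, 0.31 with each cell weighed the same, 0.38 without the 5% of cells with the most UMIs, and 0.30 without Ifitm3. Alternatives chosen after seeing the data gave 0.29 with cells thinned to 3000 UMIs and, in macrophages with Nos2 or Cxcl9, with Arg1 as well, with Arg1 alone and with none, 0.27, 0.18, 0.41 and 0.39. The number of members past 1.5-fold higher in macrophages, 5 (beside 4.31% of all genes), was 2 with each cell weighed the same (35 of 40 ratios above 1), 3 at a minimum of 2000 UMIs per cell, 9 without the 5% of cells with the most UMIs, and 0 at 2-fold. With cells thinned to 3000 UMIs (added after seeing the data) 31 of 40 ratios were above 1, 6 members passed higher and 1 (Ifi44) lower, against 0 lower in the class sums. The share of all genes past the threshold was not taken under these other settings. A move in the count can therefore not be read as a result about the members. The pDC sum of -0.06, whose interval spans 0, became 0.0681 without the 5% of cells with the most UMIs and 0.0750 with thinned cells (added after seeing the data), but -0.14 without the 4 membrane proteins, -0.18 without Bst2 and, added after seeing the data, -0.68 without Bst2, Ly6e and Ifi27l2a. The NK sum of 0.14 was 0.0183 with TMM and 0.0108 with median-of-ratios scaling, 0.0669 with each cell weighed the same, 0.0715 with thinned cells (also added later), 0.34 without the 4 membrane proteins and 0.25 without Ly6e. The coefficient of variation without the 4 membrane proteins was 0.810 in CD94-KO and 1.01 in WT macrophages, and 0.785 and 0.775 in pDC; it was 0.297 in CD94-KO pDC without the 5% of cells with the most UMIs. The cause of these shifts was not tested. Few pDC and the pooling of mice limit what the libraries can show.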
